A study of Mus musculus with 16 samples.

Results

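The 10 genes described here mark epithelial or mesenchymal identity: the epithelial genes *Cdh1*, *Epcam*, *Krt7*, *Krt8*, *Krt18* and *Krt19*, and the mesenchymal genes *Vim*, *Cdh2*, *Fn1* and *Zeb1*. They were picked by symbol out of 20622 genes with total RNA values, and all 10 were also among the 15235 genes with footprint values. The list was chosen on the difference between KM 4A2cr and KM NTC cells in ribosome-protected fragments (RPFs) and in total RNA, with the rise of *Vim* in view, so the values of these genes in that comparison are given as a description, without a test, and support nothing beyond themselves. KM cells are cells grown from lung tumours of a mouse carrying Rosa26 LSL-MYC/LSL-MYC and a further Cre-inducible allele, in which a Cre virus driven by the surfactant protein C promoter had switched on both alleles in the lung. KM NTC cells received lentiCRISPR with a non-targeting guide and KM 4A2cr cells received it with guides to *Eif4a2*, which encodes an RNA helicase of the eIF4A family, and both lines therefore carry these alleles, Cas9 and the puromycin selection. All cells were untreated. The lines come from 1 male mouse, fibroblasts were held down in culture with cholera toxin and differential trypsinisation, and KM 4A2cr is a pool of clones chosen by western blot for lack of eIF4A2, so an effect of the knockout cannot be told apart from other features of those clones. RPFs and cytoplasmic total RNA were taken from the same lysate in 4 experiments per line on different days, which gave 16 libraries.

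Epithelial cells hold together through E-cadherin, the product of *Cdh1*, and through EpCAM, and are stiffened by keratin filaments, in which a type I keratin (*Krt18* or *Krt19*) pairs with a type II keratin (*Krt7* or *Krt8*). In an epithelial to mesenchymal transition these genes go down and the vimentin filament protein (*Vim*), N-cadherin (*Cdh2*) and the matrix protein fibronectin (*Fn1*) go up, often under *Zeb1*, a repressor that binds E-box sequences in the promoters of epithelial genes. Carcinoma cells can hold both sets of genes at once, and vimentin is also found in many cultured epithelial cells.

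RPF libraries summed to between 4512403 and 9621848 counts and total RNA libraries to between 5350920 and 9312624, with the lowest total in replicate 4 of each line and kind of library. *Eif4a2* itself was 97.7, 122, 99.8 and 389 CPM (counts scaled to the library total) in RPFs of KM NTC replicates 1 to 4 and 51.0, 88.4, 74.8 and 346 CPM in KM 4A2cr, a log2 fold change of -0.49 (SE 0.15, adjusted p = 0.0941), so its transcript was still read by ribosomes in the knockout line and replicate 4 stood apart in both lines. In total RNA its log2 fold change was -0.18 (SE 0.13, adjusted p = 0.504). The epithelial label was met in every library: the 6 epithelial genes summed to between 4174 and 5206 TPM (transcript levels scaled to length and to the library total) in KM NTC and between 4307 and 5918 TPM in KM 4A2cr. The 10 markers of fibroblasts summed to between 1.45 and 3.03 TPM in KM NTC and between 1.38 and 2.96 TPM in KM 4A2cr, with *Col3a1*, *Dcn* and *Lum* at 0 in all libraries and 9 of the 10 under a mean of 1 TPM. The 7 endothelial markers summed to at most 1.94 and 1.46 TPM in the lines, 4 smooth muscle markers to at most 1.99 and 1.94 TPM, and 3 club and ciliated cell markers to at most 0.22 and 0.50 TPM. Of 8 leukocyte markers, 7 had values, and their sum of 33.4 to 221 TPM in KM NTC and 37.7 to 155 TPM in KM 4A2cr was almost wholly *Cd68*, with *Adgre1* and *Cd3e* at 0. The 9 markers of alveolar type II cells summed to 44.6 to 50.8 TPM and 43.7 to 59.3 TPM, led by *Abca3*, while the defining genes *Sftpc* and *Sftpb* were at 0. In cultures measured in bulk, fewer cells of a type and less RNA per cell cannot be told apart.

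Promoter sequences are shown for the gene with the largest fitted fold (*Vim*), for the most abundant gene (*Epcam*) and for the keratin pair *Krt8* and *Krt18*, which lie next to each other on chromosome 15 with 0 coding genes between them. They are the 250 bases before the RefSeq start in the mouse build GRCm38.p6, read 5′ to 3′ along the strand of the gene, at chr2:13574061-13574310 (+) for *Vim*, chr17:87635729-87635978 (+) for *Epcam*, chr15:102004343-102004592 (−) for *Krt8* and chr15:102027966-102028215 (+) for *Krt18*. Capitals mark the E-box CACCTG read on either strand, the GC box GGGCGG read on either strand, TATAAA and the AP-1 motif TGANTCA.
Vim: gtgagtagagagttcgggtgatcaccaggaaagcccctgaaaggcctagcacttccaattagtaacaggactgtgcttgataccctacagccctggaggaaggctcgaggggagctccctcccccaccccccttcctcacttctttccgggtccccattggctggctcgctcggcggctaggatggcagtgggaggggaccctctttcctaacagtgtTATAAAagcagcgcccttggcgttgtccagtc
Epcam: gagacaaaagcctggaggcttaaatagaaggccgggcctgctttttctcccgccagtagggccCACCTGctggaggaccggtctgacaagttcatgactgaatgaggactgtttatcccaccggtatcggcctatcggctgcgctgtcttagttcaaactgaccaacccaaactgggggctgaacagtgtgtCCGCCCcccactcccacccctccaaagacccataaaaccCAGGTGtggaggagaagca
Krt8: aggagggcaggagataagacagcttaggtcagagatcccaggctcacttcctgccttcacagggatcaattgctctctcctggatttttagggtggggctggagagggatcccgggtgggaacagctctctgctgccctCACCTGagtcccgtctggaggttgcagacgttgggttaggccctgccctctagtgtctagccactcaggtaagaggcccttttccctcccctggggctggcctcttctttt
Krt18: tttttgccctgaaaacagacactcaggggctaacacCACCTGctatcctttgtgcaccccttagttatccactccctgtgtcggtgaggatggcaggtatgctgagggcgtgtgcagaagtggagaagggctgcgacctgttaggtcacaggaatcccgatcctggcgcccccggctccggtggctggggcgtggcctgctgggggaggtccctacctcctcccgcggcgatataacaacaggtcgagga

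The *Vim* window held 1 TATAAA starting 32 bases before the start and 0 copies of CACCTG. *Epcam* held 2 copies of CACCTG, 187 and 19 bases before the start, and 1 GC box, while *Krt8* held 1 copy 111 bases before it and *Krt18* 1 copy 214 bases before it. *Krt7*, at chr15:101412153-101412402 (+), held 1 copy of CACCTG and 4 GC boxes. None of the 5 windows held TGANTCA. Among 27025 mouse promoter windows of this length, 17.1% held CACCTG, 32.9% GGGCGG, 13.0% TATAAA and 6.87% TGANTCA. The wider E-box class CANNTG, of which CACCTG is a case, was in 66.0% of them. A match describes the letters of the window and says nothing on binding. *Cdh1*, *Krt19* and *Fn1* had no entry in the table used. Entries on chromosome 18, where *Cdh2* and *Zeb1* lie, were left out.

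Levels of the 10 genes were compared per transcript length, as TPM of total RNA, since footprint counts were not scaled to length. In KM NTC, *Epcam* came first at 1467 ± 225 TPM (SD, n = 4), followed by *Krt18* at 1395 ± 261, *Cdh1* at 827 ± 53.8, *Fn1* at 498 ± 59.1, *Krt8* at 465 ± 143, *Krt19* at 393 ± 141, *Krt7* at 313 ± 71.8 and *Cdh2* at 139 ± 50.5 TPM. *Vim* was far below them at 7.97 ± 3.01 TPM and *Zeb1* was barely detected at 0.105 ± 0.031 TPM. The ranges of *Epcam* and *Krt18* overlapped, as did those of each neighbouring pair from *Fn1* to *Krt7*, while *Krt18* and *Cdh1*, *Cdh1* and *Fn1*, *Krt7* and *Cdh2*, *Cdh2* and *Vim*, and *Vim* and *Zeb1* did not overlap. Among genes above 0, *Epcam* stood at percentile 99.4, *Cdh2* at 93.6, *Vim* at 52.8 and *Zeb1* at 19.1. Of the mesenchymal genes, *Fn1* and *Cdh2* were thus among the abundant transcripts of these cells, and *Vim* and *Zeb1* were not. In KM 4A2cr the order changed only between *Krt19* (429 ± 104 TPM) and *Krt8* (400 ± 82.7 TPM), which overlapped, and the separate neighbours were *Cdh1* and *Fn1*, *Krt7* and *Cdh2*, and *Vim* and *Zeb1*. *Cdh2*, at 18.1 to 145 TPM, then overlapped *Vim*, at 16.6 to 27.6 TPM, through its value in replicate 4.

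**Figure D1:**
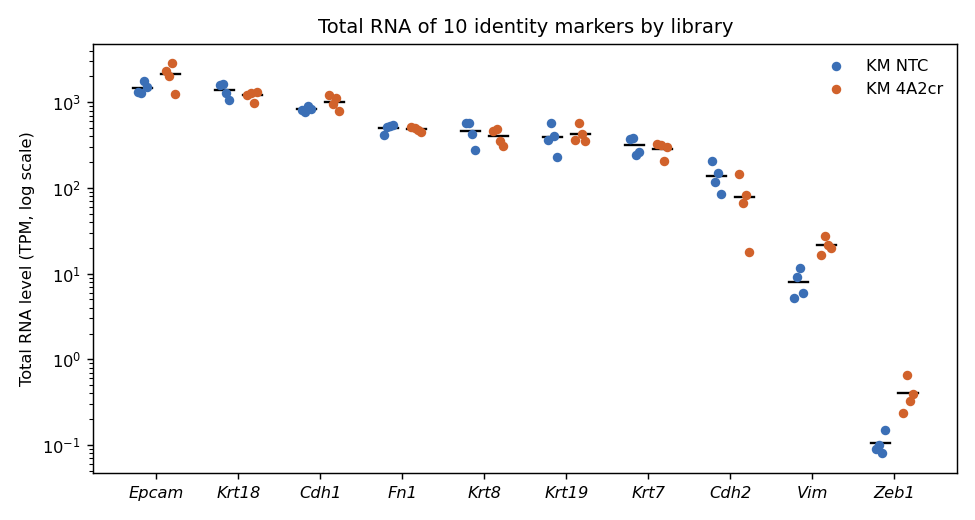
Total RNA level of the 10 genes in each library, as deposited TPM on a log axis, with KM NTC in blue, KM 4A2cr in orange, a point per library and a black bar at the mean of 4. *Epcam*, *Krt18* and *Cdh1* lead in both lines, *Vim* lies at 5.17 to 11.7 TPM in KM NTC and 16.6 to 27.6 TPM in KM 4A2cr, and *Zeb1* stays under 1 TPM.

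Differences between the lines were taken from CPM scaled by TMM within each kind of library, with edgeR fits that held the replicate as a term. Of the 10 genes, 9 had enough counts to be fitted and *Zeb1* did not. In RPFs, 4 of the 9 passed the threshold used for all genes (adjusted p of 0.1): *Vim*, *Cdh1* and *Epcam* were higher in KM 4A2cr and *Cdh2* was lower. Over all genes, 6.60% passed as higher and 3.72% as lower in RPFs. In total RNA 2 of the 9 passed, *Vim* as higher and *Cdh2* as lower, where 4.35% of all genes passed as higher and 1.78% as lower. Scaled by library size alone, the split over all genes turned, from 679 higher and 383 lower to 482 and 1137 in RPFs and from 473 and 194 to 262 and 868 in total RNA. Because this contrast chose the genes, nothing is read from these counts against the shares for all genes. The median log2 fold change of the 9 genes was -0.05 in RPFs and 0.14 in total RNA, and that of all genes tested was -0.01 and 0.01.

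**Figure D2:**
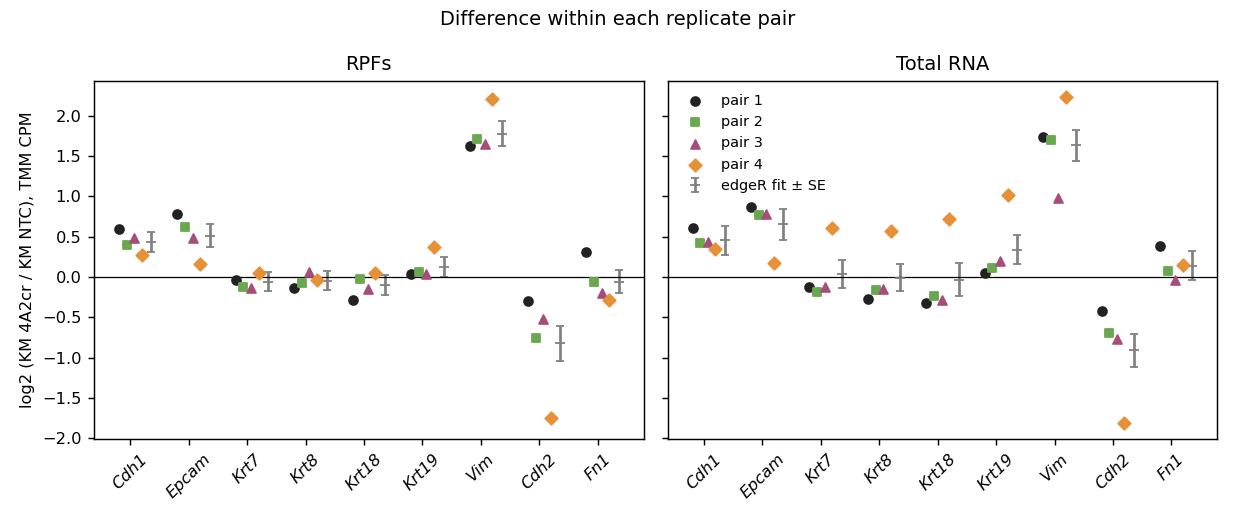
Log2 ratio of KM 4A2cr to KM NTC within each replicate pair, from TMM-scaled CPM, for RPFs (left) and total RNA (right), with the edgeR log2 fold change ± SE in grey. *Vim* is above 0 and *Cdh2* below 0 in all 4 pairs of both panels, and in total RNA the 4 keratins of pair 4, on this scale, lie 0.57 to 1.02 above 0.

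*Vim*, which encodes the intermediate filament protein of mesenchymal cells, was higher in KM 4A2cr. Its RPF level was 6.07, 11.5, 10.0 and 7.76 CPM in KM NTC replicates 1 to 4 and 18.7, 37.8, 31.4 and 35.8 CPM in KM 4A2cr. Every KM 4A2cr library was above every KM NTC library. The fitted RPF fold was 3.43 (log2 1.78, SE 0.15), with pair log2 ratios of 1.63, 1.71, 1.65 and 2.21. Total RNA gave 5.33, 8.00, 12.3 and 7.28 CPM in KM NTC and 17.8, 26.1, 24.2 and 34.1 CPM in KM 4A2cr, again without overlap. The fitted total RNA fold was 3.10 (log2 1.63, SE 0.20), and the smallest pair ratio, 0.98, was in replicate 3, where KM NTC was highest. These folds rest on few reads, with 293 RPF counts in the 4 KM NTC libraries and 819 in the 4 KM 4A2cr libraries, and 256 and 590 in total RNA. Without replicate 4 the log2 fold changes were 1.67 in RPFs and 1.44 in total RNA. Footprints were counted on 1 of the 2 *Vim* isoforms, which held 41.7% to 56.4% of the TPM of the gene. Total RNA of that isoform alone gave a log2 fold change of 1.66. *Vim* lies on chromosome 2, whose genes had a median log2 fold change of -0.21 in RPFs and -0.17 in total RNA, while the chromosomes of the other genes had medians between -0.02 and 0.05. The summed level of the fibroblast markers given above ran over like ranges in the lines, but that sum was mostly *Pdgfra*. This gene was at 1.07 to 3.03 TPM in KM NTC and 1.33 to 2.85 TPM in KM 4A2cr. Whether fibroblasts had a part in the *Vim* values was not tested.

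*Zeb1*, the E-box repressor, was too scarce for the main fits but had more reads in every KM 4A2cr library than in its KM NTC partner. RPF counts were 3, 0, 0 and 2 in KM NTC and 12, 16, 3 and 6 in KM 4A2cr, or 5 against 37 in sum. The 2 libraries at 0 allow up to 0.298 and 0.411 CPM (3 counts each, counting error only). Total RNA counts were 2, 3, 2 and 3 in KM NTC and 5, 15, 6 and 9 in KM 4A2cr, or 10 against 35 in sum, and *Zeb1* total RNA stayed at or under 0.66 TPM in all libraries. With no filter on low counts, edgeR called *Zeb1* as higher in RPFs (adjusted p = 0.037) and in total RNA (log2 fold change 2.09, adjusted p = 0.0219). In RPFs it was also fitted without replicate 3, and was not called there (adjusted p = 0.225). These fits rest on the few counts above.

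*Cdh2*, encoding N-cadherin, was lower in KM 4A2cr, the reverse of *Vim*. Its RPF level was 737, 403, 556 and 586 CPM in KM NTC and 598, 239, 387 and 175 CPM in KM 4A2cr. All 4 pairs were lower, by log2 ratios of -0.30, -0.75, -0.52 and -1.75, but the ranges of the lines overlapped and replicate 4 held the widest gap. The fitted RPF fold was 0.566 (log2 -0.82, SE 0.22). Total RNA was 475, 230, 355 and 246 CPM in KM NTC and 354, 142, 208 and 70.5 CPM in KM 4A2cr, with a fitted fold of 0.533 (log2 -0.91, SE 0.21). Without replicate 4 the log2 fold changes were -0.52 and -0.64, and the RPF call was lost without replicate 1, 2 or 3 and the total RNA call without replicate 2 or 3. Footprints were counted on 1 of the 2 *Cdh2* isoforms, which held 47.5% to 55.5% of the TPM of the gene. Total RNA of that isoform alone gave a log2 fold change of -0.94.

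*Fn1*, the fibronectin gene, is the most abundant of the 4 mesenchymal genes and showed no shared direction. RPF levels were 2933, 3051, 4813 and 6521 CPM in KM NTC and 3640, 2921, 4200 and 5341 CPM in KM 4A2cr, higher in 1 pair and lower in 3. The fitted log2 fold changes were -0.06 (SE 0.14) in RPFs and 0.14 (SE 0.18) in total RNA, where levels ran from 1683 to 2720 CPM in KM NTC and from 1874 to 3019 CPM in KM 4A2cr. *Fn1* had 8 isoforms in the total RNA tables and footprints were counted on 1 of them, which held 13.6% to 14.4% of the TPM of the gene.

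**Figure D3:**
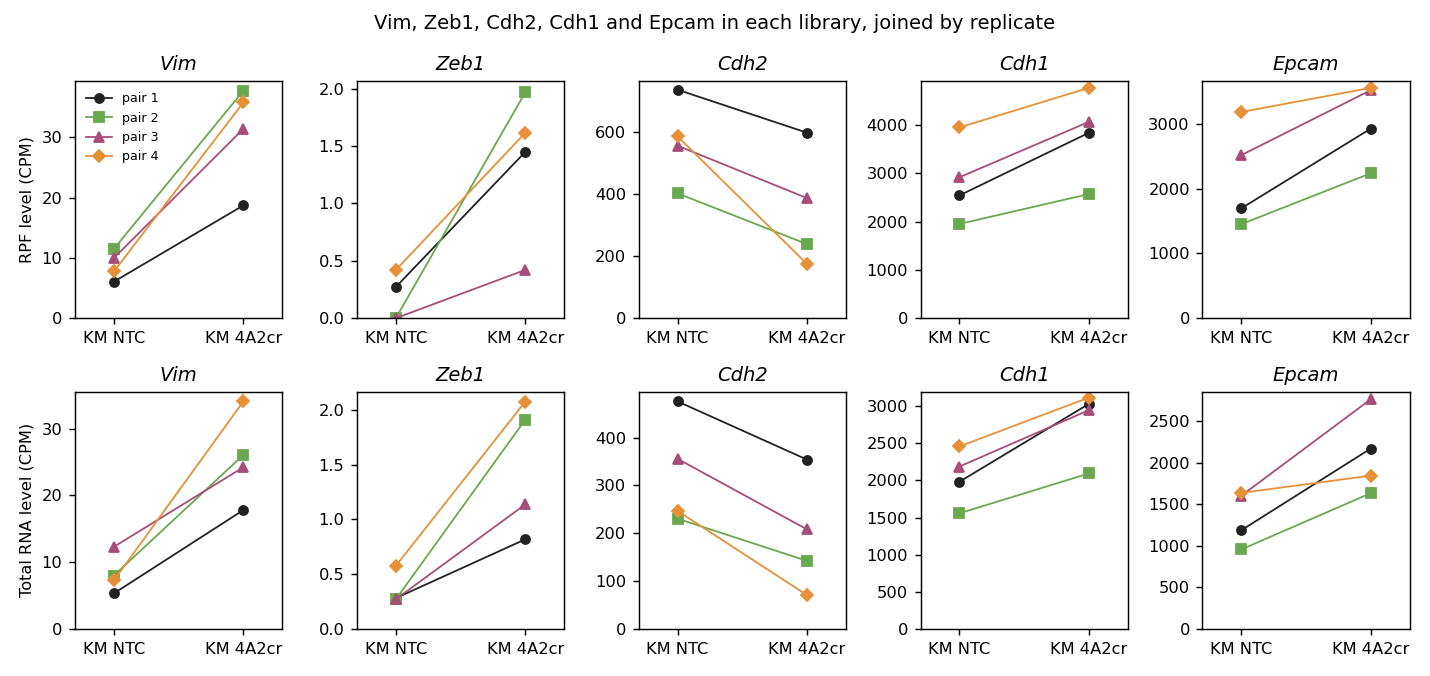
TMM-scaled CPM of *Vim*, *Zeb1*, *Cdh2*, *Cdh1* and *Epcam* in RPFs (top) and total RNA (bottom), with each line joining KM NTC and KM 4A2cr of 1 replicate and every axis starting at 0. All lines go up for *Vim*, *Zeb1*, *Cdh1* and *Epcam* and down for *Cdh2*, while the KM NTC and KM 4A2cr values of *Cdh1*, *Epcam* and *Cdh2* overlap across replicates.

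On the TMM scale, the epithelial surface genes were not lower where *Vim* was higher. *Cdh1*, encoding E-cadherin, had RPF levels of 2540, 1950, 2915 and 3947 CPM in KM NTC and 3836, 2568, 4062 and 4765 CPM in KM 4A2cr. Each KM 4A2cr library was above its KM NTC partner, while the ranges of the lines overlapped. The fitted RPF fold was 1.35 (log2 0.44, SE 0.13). Total RNA of *Cdh1* was 1983, 1558, 2188 and 2459 CPM in KM NTC and 3033, 2095, 2948 and 3118 CPM in KM 4A2cr, a fold of 1.37 (log2 0.45, SE 0.18) that did not pass the threshold.

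*Epcam*, an adhesion molecule of epithelial cells, showed the same order within pairs. Its RPF level was 1695, 1451, 2516 and 3182 CPM in KM NTC and 2926, 2237, 3519 and 3555 CPM in KM 4A2cr, a fold of 1.43 (log2 0.51, SE 0.14). The pair log2 ratio was 0.79 in replicate 1 and 0.16 in replicate 4. In total RNA it was 1186, 956, 1601 and 1636 CPM in KM NTC and 2169, 1632, 2762 and 1843 CPM in KM 4A2cr, a fold of 1.57 (log2 0.65, SE 0.19) that just missed the threshold. The RPF calls of *Cdh1* and *Epcam* were both lost when replicate 1, 2 or 3 was left out, and that of *Cdh1* also under upper-quartile scaling. In deposited TPM, which carry no TMM scaling, replicate 4 went the other way for both genes: *Cdh1* was 830 TPM in KM NTC and 782 TPM in KM 4A2cr, and *Epcam* 1496 and 1252 TPM, while both were higher in KM 4A2cr in the 3 other replicates.

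Differences in the 4 keratins were small in RPFs. *Krt18*, the type I keratin of simple epithelia and the most abundant keratin among the 4, had RPF levels of 1878, 1756, 1642 and 1770 CPM in KM NTC and 1547, 1724, 1486 and 1832 CPM in KM 4A2cr (log2 fold change -0.10, SE 0.12). Its partner *Krt8* had 893, 697, 573 and 461 CPM in KM NTC and 814, 661, 600 and 450 CPM in KM 4A2cr (-0.05, SE 0.12). *Krt7*, the other type II keratin, had 1477, 1304, 1027 and 1318 CPM and 1442, 1198, 938 and 1369 CPM (-0.06, SE 0.12). The ranges of the lines overlapped for these 3 genes. *Krt19*, the smallest type I keratin, had 661, 960, 860 and 534 CPM in KM NTC and 679, 999, 886 and 693 CPM in KM 4A2cr, slightly higher in all 4 pairs (0.13, SE 0.12).

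In total RNA on the TMM scale, KM 4A2cr replicate 4 was the highest library of its line for each of the 4 keratins. *Krt18* stood apart there, while *Krt8*, at 517 CPM, lay inside the KM NTC range of 348 to 585 CPM. *Krt18* total RNA was 1123, 995, 942 and 944 CPM in KM NTC and 902, 843, 775 and 1556 CPM in KM 4A2cr. The first 3 pairs were thus lower in KM 4A2cr, by log2 ratios of -0.32, -0.24 and -0.28, and the last was higher by 0.72. *Krt7* was 817, 719, 543 and 718 CPM in KM NTC and 749, 633, 496 and 1090 CPM in KM 4A2cr, and *Krt8* was 585, 495, 432 and 348 CPM and 485, 442, 389 and 517 CPM, both with the same turn in replicate 4. *Krt19* was 290, 386, 324 and 227 CPM in KM NTC and 301, 417, 371 and 460 CPM in KM 4A2cr, higher in all 4 pairs with its widest gap, 1.02, in replicate 4. Fitted over all replicates, the log2 fold changes were -0.03 (SE 0.21) for *Krt18*, 0.04 (SE 0.18) for *Krt7*, -0.01 (SE 0.17) for *Krt8* and 0.34 (SE 0.18) for *Krt19*. Without replicate 4, *Krt18* total RNA fell to a log2 fold change of -0.29 and passed the threshold. In deposited TPM that library did not stand apart: KM 4A2cr replicates 1 to 4 had 1202, 1297, 988 and 1315 TPM of *Krt18*, and replicate 4 was the lowest of them for *Krt8* (310 TPM) and *Krt19* (351 TPM). The turn within pair 4 was still there, with *Krt18* at 1073 TPM in KM NTC replicate 4 and *Krt8* at 280 TPM, while *Krt19* in pair 1 was 365 and 361 TPM, so it was not higher in all pairs on that scale. The excess of these 4 keratins on the TMM scale in that library was not met in its RPFs, where the pair log2 ratios of replicate 4 were at most 0.38.

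Ratios within a library put these levels side by side. *Vim* total RNA was 0.330% to 0.899% of that of *Krt18* in KM NTC and 1.38% to 2.18% in KM 4A2cr, as TPM, so keratin transcripts outnumbered those of *Vim* in every library of both lines. The ratio of *Cdh1* to *Cdh2* TPM was 4.03, 6.51, 5.95 and 9.65 in KM NTC replicates 1 to 4 and 8.28, 14.4, 13.6 and 43.3 in KM 4A2cr. It was higher in KM 4A2cr in each pair, and the ranges overlapped. Type I keratins (*Krt18* and *Krt19*) stood to type II keratins (*Krt7* and *Krt8*) at 2.33 ± 0.22 in KM NTC and 2.41 ± 0.32 in KM 4A2cr (SD, n = 4), which differed by less than the spread between replicates.

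Translational efficiency, the RPF level relative to total RNA, passed the threshold in either direction for 0 of the 9 genes by edgeR, where 2.87% of all genes passed, and 1 of the 9, *Fn1*, had an unadjusted p under 0.05. This follows from the 2 contrasts that chose the genes and is likewise a description. The log2 difference in efficiency was 0.17 (SE 0.18) for *Vim*, 0.10 (SE 0.09) for *Cdh2*, -0.02 (SE 0.09) for *Cdh1* and -0.14 (SE 0.09) for *Epcam*. It was -0.20 (SE 0.10) for *Fn1* and -0.21 (SE 0.10) for *Krt19*. The ratio of RPF to total RNA CPM of *Krt18* was 1.67, 1.77, 1.74 and 1.88 in KM NTC and 1.72, 2.05, 1.92 and 1.178 in KM 4A2cr. Replicate 4 of KM 4A2cr was the lowest library for the ratio of each of the 4 keratins, at 1.26 for *Krt7*, 0.870 for *Krt8* and 1.51 for *Krt19*.

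Over the 8 libraries of a kind, which share replicate days and differ by line, *Cdh1* and *Epcam* varied together. Pearson's r of their log2 CPM was 0.961 (Spearman 1.0) in RPFs and 0.893 (Spearman 0.881) in total RNA, and 0.925 and 0.898 without the 2 libraries farthest from the median of *Cdh1*. The mesenchymal gene *Fn1* varied with both in RPFs, with r of 0.732 for *Cdh1* and 0.744 for *Epcam*. With the line means taken off these were 0.911 and 0.958, beside 0.945 for *Cdh1* and *Epcam*. In RPFs the likeness was thus not particular to the epithelial pair. In total RNA *Fn1* had r of 0.708 and 0.474, and 0.754 and 0.429 with the line means taken off. For *Vim* and *Cdh2*, r after the line means were taken off was -0.864 in RPFs and -0.639 in total RNA. With the line means left in it was -0.834 and -0.737, and without the 2 farthest from the median of *Vim* -0.685 and -0.379, so the total RNA value rested on those libraries. *Krt8* and *Krt18*, which pair in filaments, had r of -0.0936 in RPFs and 0.578 in total RNA. The 5 genes most like *Vim* in RPFs by Pearson's r were *Clic3* (0.957), *Nsmce4a* (0.939), *Arfgef3* (0.935), *Fbxo4* (0.923) and *Oxr1* (0.920). In total RNA they were *Frmd5* (0.978), *Clic3* (0.965), *Arfgef3* (0.941), *Cyp4f17* (0.919) and *Slc6a3* (0.911). The *Vim* levels form separate groups by line, so these values hold the difference between the lines and are given as a description.

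Another 130 genes of epithelial and mesenchymal identity, in 7 lists, were read from the same fits. Of the 90 tested in RPFs 14 were higher and 2 lower in KM 4A2cr, with a median log2 fold change of 0.04, and of the 83 tested in total RNA 12 were higher and 3 lower, with a median of 0.04. Over all genes the shares called higher and lower were 6.60% and 3.72% in RPFs and 4.35% and 1.78% in total RNA. The lists were chosen with earlier results of these data known.

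Transcription factors of the mesenchymal transition gave no call. Of 13 genes, 7 were tested in RPFs and 6 in total RNA, and 7 of the 13 were under a mean of 1 TPM. By edgeR 0 passed the threshold and 0 and 1 had an unadjusted p under 0.05, with medians of -0.16 and -0.14. Of all genes, 6.60% were called higher and 3.72% lower in RPFs, and 4.35% and 1.78% in total RNA. Beside these shares, 0 calls among so few genes are not read as a result. *Snai1*, a repressor of *Cdh1*, summed to 67 RPF counts in the control line and 77 in the knockout line (log2 fold change 0.51, SE 0.25, adjusted p = 0.253). *Snai2* summed to 49 total RNA counts in the control line and 16 in the knockout line, *Zeb2*, the relative of *Zeb1*, to 39 and 43, and *Twist1* to 6 and 2, all too few to test.

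Of 17 regulators of epithelial fate, 1 of 11 tested was higher in RPFs and 0 of 10 in total RNA by edgeR, with 3 and 2 at an unadjusted p under 0.05. Of all genes, 6.60% were called higher and 3.72% lower in RPFs, and 4.35% and 1.78% in total RNA. Beside these shares, 1 call is not read as a result about the list. The called gene was *Klf4*, a transcription factor of barrier epithelia, at 12.8 ± 4.04 CPM in KM NTC RPFs and 19.6 ± 6.04 CPM in KM 4A2cr (log2 fold change 0.63, adjusted p = 0.0679), with -0.16 in total RNA (adjusted p = 0.620). Of 14 other keratins, 6 were tested in RPFs and 4 in total RNA. By edgeR 0 were called, beside the shares of all genes just given, with 1 and 0 at an unadjusted p under 0.05. That 1 gene, *Krt4*, had 359 and 404 RPF counts in KM NTC and KM 4A2cr but only 7 and 4 total RNA counts. *Krt10* went the other way, with 6 and 4 RPF counts and 59 and 44 total RNA counts. Both were named after their values were seen. The basal keratin *Krt14* had log2 fold changes of 0.39 (SE 0.18) in RPFs and 0.16 (SE 0.25) in total RNA, and its partner *Krt5* had only 13 and 26 RPF counts. The most abundant of these keratins, *Krt80*, had a mean of 22.2 TPM, below each of the 4 keratins above.

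Most cell junction genes were not called, and those called lay in both directions. Of 25 genes of adherens junctions and desmosomes, 22 were tested, with 4 higher and 2 lower in RPFs and 5 higher and 2 lower in total RNA, beside 6.60% and 3.72% of all genes in RPFs and 4.35% and 1.78% in total RNA. *Nectin1*, an adhesion molecule of adherens junctions, rose with a log2 fold change of 1.83 in RPFs (SE 0.16, adjusted p = 0.00174) and 1.56 in total RNA (SE 0.17, adjusted p = 0.00136). Its RPF level was 20.5, 7.84, 15.3 and 32.7 CPM in KM NTC and 52.5, 31.1, 69.9 and 118 CPM in KM 4A2cr, and its call held without each replicate in turn. The desmosomal cadherins moved apart: *Dsg2* rose by 0.60 in RPFs (adjusted p = 0.0388) and 0.59 in total RNA (adjusted p = 0.0342), while *Dsc2* had -0.97 (adjusted p = 0.0679) and -1.09 (adjusted p = 0.0268). The desmosomal protein gene *Perp* rose by 0.61 (adjusted p = 0.0272) and 0.72 (adjusted p = 0.0372). The other lower genes were the plakophilins *Pkp2* in RPFs (-0.43, adjusted p = 0.0840) and *Pkp4* in total RNA (-0.46, adjusted p = 0.0888), while the plakophilin *Pkp3* was higher in total RNA (0.46, adjusted p = 0.0984) and *Pkp1* had 0.04 and 0.11 without a call. These 4 were named after their values were seen. P-cadherin (*Cdh3*) had -0.02 and 0.08 and beta-catenin (*Ctnnb1*), the cytoplasmic partner of E-cadherin, -0.34 (adjusted p = 0.153) and -0.21 (adjusted p = 0.517).

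Of 19 other epithelial surface genes, all tested in both kinds of library, 7 were higher and 0 lower in RPFs and 5 higher and 1 lower in total RNA, with medians of 0.29 and 0.23. The shares of all genes called higher and lower were 6.60% and 3.72% in RPFs and 4.35% and 1.78% in total RNA. Genes of the hemidesmosome and its laminin were among them. *Lamb3*, a chain of laminin-332, rose by 0.91 in RPFs (SE 0.14, adjusted p = 0.0119) and 1.02 in total RNA (SE 0.17, adjusted p = 0.0127). *Itgb4*, the integrin that binds this laminin, rose by 0.50 (adjusted p = 0.0513) and 0.75 (adjusted p = 0.0164). The lower gene was the surface glycoprotein gene *Cd24a* in total RNA (-0.62, adjusted p = 0.0327). It had -1.16 in RPFs on 69 and 26 counts (adjusted p = 0.111).

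Of 36 other mesenchymal genes, 19 were tested in RPFs and 16 in total RNA, and 19 of the 36 were under a mean of 1 TPM. In RPFs 2 were higher, in total RNA 1 was higher, and 0 were lower in either, with medians of 0.08 and 0.18, where 6.60% of all genes were called higher in RPFs and 4.35% in total RNA. *Itga5*, the fibronectin-binding integrin chain, rose by 0.75 in RPFs (adjusted p = 0.0381) and 0.88 in total RNA (adjusted p = 0.0127). *Cdh11*, a mesenchymal cadherin, had 0.61 in RPFs, at the edge of the threshold (adjusted p = 0.09997), and 0.36 in total RNA (adjusted p = 0.165). Smooth muscle actin (*Acta2*) had 61 and 62 RPF counts in KM NTC and KM 4A2cr, and 36 and 30 total RNA counts. *Col1a1*, the main collagen of fibroblasts, had 11 and 9 RPF counts. Its total RNA was read 0 times in KM NTC and 1 time in KM 4A2cr. Of 6 genes whose proteins bind or organise intermediate filaments, 0 were called in RPFs by edgeR (0 at an unadjusted p under 0.05) and 1 was higher in total RNA, *Plec*, the plectin gene (0.73, adjusted p = 0.0142). Of the calls in these 7 lists, 3, 1 and 1 of the 16 in RPFs and 5, 3 and 1 of the 15 in total RNA stayed past the threshold without replicates 1, 2 and 3 respectively, and all stayed without replicate 4.

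**Figure D4:**
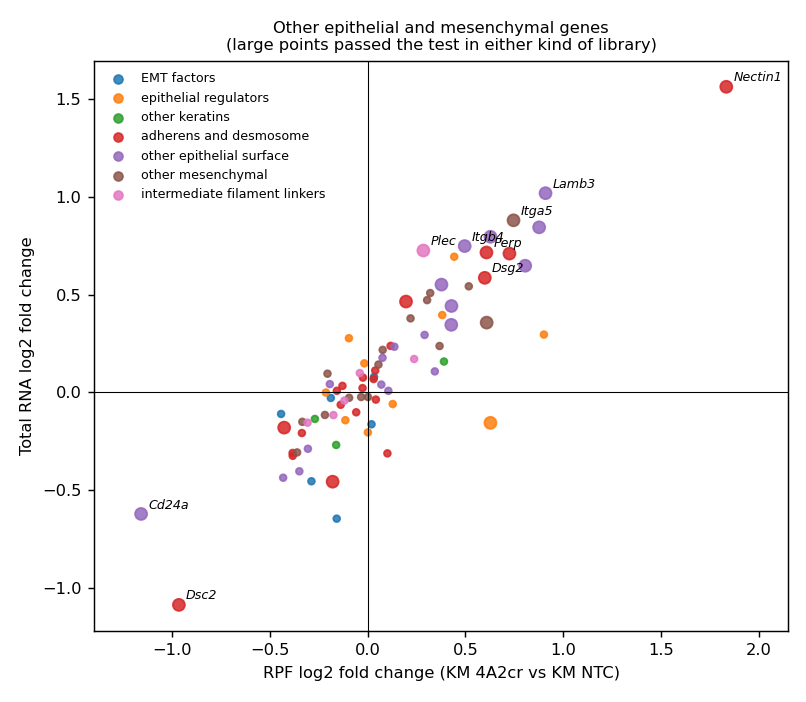
Log2 fold change in RPFs (x axis) and total RNA (y axis) of the 82 genes of the 7 lists tested in both kinds of library, coloured by list, with large points for genes past the threshold in either. *Nectin1*, *Lamb3* and *Itga5* lie upper right and *Dsc2* and *Cd24a* lower left, and most genes lie near the origin.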

How the data were processed

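Total RNA and RPFs of KM NTC and KM 4A2cr cells were measured, with 4 libraries of each kind per line, grouped by sample title. RPF values are raw counts that the authors deposited for each transcript as whole numbers. Reads had been trimmed with Cutadapt 1.18, aligned with BBmap to 1 transcript per gene (GENCODE vM27, filtered) and deduplicated with UMI-tools 1.0.1, and codons at both ends of the coding sequence were left out of the sum. The total RNA values deposited by the authors are expected counts and TPM from RSEM 1.3.3, listed by isoform, with Bowtie2 2.3.5.1 as the aligner. Counts on 1 transcript miss footprints of exons found only in other isoforms. Keratin genes resemble each other, and the handling of reads that match several of them can move their counts. *Krt4* and *Des*, another intermediate filament gene, had footprints with almost no total RNA. *Des*, named after its values were seen, had 237 and 150 RPF counts in KM NTC and KM 4A2cr and 1 and 3 total RNA counts. Whether misplaced reads had a part in these footprints was not tested.

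The deposited expected counts and TPM were summed per gene, and the counts were rounded. A transcript not listed in an RPF library was taken as 0. Symbols were found for 20586 of 20622 genes. Genes passing filterByExpr were scaled by TMM and tested in R 4.3.3 with edgeR 4.0.16 (glmQLFit and glmQLFTest), with line and replicate as terms, Benjamini-Hochberg adjustment over all genes and a threshold of 0.1. SE is the log2 fold change over the root of the F statistic. Translational efficiency was the interaction of line and kind of library over 16 libraries. Each kind was scaled separately, so a change of all mRNA or all footprints leaves no trace. Floors cover counting error only, while the SE also takes in the spread between replicates that edgeR estimates. Each fit was first tested on simulated counts.

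Replicates were separate experiments on different days per the series design, and the numbers come from the titles. Deviations of same-numbered libraries from the line means correlated at 0.763, 0.782, 0.575 and 0.687 in RPFs and 0.756, 0.736, 0.611 and 0.708 in total RNA, so the replicate was kept as a block. The genes and lists were chosen with earlier results of these data known. Named genes are the 10 members, in each list the 3 called genes with the smallest p, 10 set names such as *Snai1*, and the 5 genes most like *Vim* in each kind (log2 CPM, prior count 2). Others are marked as named after their values were seen. Alternatives were no block, DESeq2 1.42.0, 3 other scalings, 2 other filters, the RPF isoform only and leaving out each replicate. Promoters came from RefSeq, with windows read for 5 of the 10 genes and chromosome 18 left out. The build of the RefSeq table differs from that of the files, and no other coordinates are given. Some items that the rule for named genes or the sample descriptions would give are not reported here.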

Additional observations from a re-analysis of the deposited data

Results flagged for a closer look

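Of 40 groups of 4 libraries (10 genes, 2 lines, 2 kinds of library), 3 held a library far from the others in TMM-scaled CPM, and chance alone sets 1 in 20 such groups apart. *Krt18* total RNA was 1556 CPM in KM 4A2cr replicate 4 against 775 to 902 CPM in the other 3 libraries. In deposited TPM it did not stand apart, at 1315 TPM against 988 to 1297 TPM. *Cdh1* total RNA was 2095 CPM in KM 4A2cr replicate 2 against 2948 to 3118 CPM in the others, and the KM NTC library of replicate 2 was also the lowest of its line, at 1558 CPM. In deposited TPM, replicate 2 of KM 4A2cr, at 956 TPM, lay inside the range of the others, and replicate 4, at 782 TPM, was lowest. *Zeb1* total RNA was 0.575 CPM in KM NTC replicate 4, on 3 counts, a difference of about 1 count from the other libraries.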

How the results depend on the processing

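The results depend on the replicate block. With no replicate block, edgeR called 0 of the 10 genes and 0 of the list genes in RPFs and in total RNA, with 1 of the 9 tested and 7 list genes at an unadjusted p under 0.05 in RPFs and 1 and 11 in total RNA. Over all genes 0 were then called, with 365 and 362 at that p. With the block, DESeq2 called 4 of the 10 genes in total RNA, as did the fit with no filter on low counts, where *Zeb1* was also fitted and called, against 2. In RPFs the fit with no such filter called 5 of the 10 genes, *Zeb1* among them, against 4. Leaving out 1 replicate at a time gave 1 to 4 of the 10 genes in RPFs and 1 to 5 in total RNA, and 1 to 39 list genes in RPFs and in total RNA. The highest counts came without replicate 4 and the lowest included those without replicate 3, when the calls over all genes were also fewest. *Vim* was called under each alternative with the block. Of the 9 fitted genes, 0 values called in the main fit changed sign under any alternative. Values near 0 that were not called there did, for *Krt19* and *Fn1* in RPFs and *Krt7*, *Krt8*, *Krt18* and *Fn1* in total RNA. *Krt18* total RNA ran from -0.29 to 0.06 and kept its sign in 8 of 12 alternatives. Further, 3 values moved past the spread, all with library size as the sole scaling: *Krt7* (-0.19) and *Krt8* (-0.17) in RPFs and *Cdh1* total RNA (0.30). That scaling put the median of all genes at -0.14 in RPFs and -0.15 in total RNA and split the list calls into 10 higher and 7 lower in RPFs and 7 and 6 in total RNA. Translational efficiency gave 0 of the 9 genes under each alternative run. Depth limits *Vim* and, most of all, *Zeb1*, on at most 16 counts in a library.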
